A study of Solanum lycopersicum with 9 samples.

Results

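The transcriptome of red ripe wild-type tomato fruit was described from the 3 arrays labelled WT, of 9 arrays in all. The WT fruit came from Solanum lycopersicum cv Money Maker, and each array held RNA from mesocarp, the fleshy wall of the fruit, pooled from 2 fruits, with 3 plants per line. The other 6 arrays, used here only for comparison, held 3 pools of line AS5 and 3 of line AS17, both of the same cultivar and carrying an antisense construct against Asr1, a gene named for abscisic acid, stress and ripening. All plants grew in a greenhouse at 80% relative humidity with 16 h of light and 8 h of darkness, and n counts pools.

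Tomato is a climacteric fruit, which means that ripening comes with a burst of ethylene made from S-adenosylmethionine by ACC synthases and ACC oxidases. Ethylene binds membrane receptors, which act through CTR kinases and EIN2 on EIN3-like (EIL) transcription factors, while MADS-box regulators such as RIN switch on ripening genes. The ripe mesocarp is red from lycopene, soft from the work of wall-degrading enzymes, and sweet from hexoses that vacuolar invertase releases from sucrose. Many of these enzymes belong to families of paralogues, the copies of a gene within 1 genome, and ripe fruit is known to use particular copies.

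Each value is a deposited log2 expression value of 1 probe set, a group of short probes for 1 transcript. Of 10038 probe sets for tomato transcripts, 909 (9.06%) carried a gene symbol, and these stood for 802 genes. The other 9129 were unnamed, so the account covers named genes only. Background was set on each array at the 95th percentile of 63 control probe sets for reporter genes, which are foreign to tomato. It stood at 1.48, 1.41 and 1.56 in WT pools 1, 2 and 3. The signal of a probe set depends on its probes as well as on its transcript, so the order of genes by signal is not an order by transcript number, and no folds between genes are given.

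The WT arrays were alike in scale, with medians of 5.30, 5.33 and 5.30 and between 19.9% and 21.4% of probe sets at or below background. Pools 1 and 3 differed by over 1 log2 unit at 90 probe sets, pools 1 and 2 at 192, and pools 2 and 3 at 244. Pool 2 thus stood somewhat apart from the others. It also had the highest 3′ minus 5′ signal, a sign of RNA quality, of the 3 WT arrays for the control genes actin (1.097 against 0.80 and 0.94), gapdh (1.03 against 0.86 and 0.83) and ef1a (3.76 against 3.17 and 3.47).

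The label of ripe fruit was checked against marker genes. Of 13 ripe fruit markers, 11 had a named probe set. The band of high signal (90th percentile of its array or above) held 7 of them (2A11, Psy1, PG2, E8, EXP1, RIN and ACS2), 3 were of middle signal (NOR, loxC and TBG4), and lin5 was at background. The summed log2 values of the 11 were 103.67, 102.80 and 102.78 in pools 1, 2 and 3. Of 14 green tissue markers, 4 had a named probe set, with 1 in the middle band, 2 low and 1 partly at background, and their sums were 18.04, 20.63 and 17.404. Of 7 markers of dividing cells, 5 had one, with PCNA and CYCD3 in the middle band, CDKB1 partly at background and CycA1 and CDKB2 at background. The epidermal markers ltpg1 (5.03 ± 0.23, SD, n = 3) and LE16 (1.45 ± 0.20) were low and partly at background. The seed marker MAN2 was at background at 0.76 ± 0.12, and no vascular marker was named. In bulk mesocarp, fewer cells of a type and less RNA per cell cannot be told apart.

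Signal bands divided the 802 named genes. At background on all 3 arrays were 160 genes (19.95%), and 40 (4.99%) were at background on 1 or 2 arrays. The remaining 602 genes fell into 144 (17.96%) in the low band, below the median of all probe sets, 309 (38.5%) in the middle band and 149 (18.6%) in the high band. Counted by probe set, the high band held 16.7% of named and 9.31% of unnamed ones. At background were 21.9% of named and 18.01% of unnamed ones. Named probe sets were thus more often in the high band and also more often at background, as a description of which genes carry names. The last genes on either side of the limits lay close together. The lowest mean in the high band was 9.18 and the highest in the middle band 9.14. The lowest mean in the middle band was 5.31 and the highest in the low band 5.26.

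How far the probe set decides the band was seen in the 83 genes with more than 1 probe set. The median range between probe sets of a gene was 1.35 log2 units, and 29 genes had a range over 3. All probe sets of a gene shared 1 band in 31 of the 83. The widest range, 10.35, belonged to Psy1, whose 3 probe sets stood at 12.12, 5.36 and 1.77. Each gene is described below by its brightest probe set, and a gene at background by its only or brightest 1 is not shown to be silent.

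The 25 named genes with the highest WT mean were of mixed roles, and their SDs between pools were at most 0.20. 2A11, a small abundant fruit protein, read 12.53, 12.53 and 12.48 in pools 1, 2 and 3, and 1 unnamed probe set alone had a higher WT mean. AI, the vacuolar acid invertase also called TIV1, read 12.36, 12.40 and 12.34. ADH2, an alcohol dehydrogenase that makes flavour alcohols, read 12.35, 12.37 and 12.33. These genes were near the top of the range on every array, where the highest value of any probe set was 12.8 to 12.9. SAHH, the hydrolase that recycles S-adenosylhomocysteine, read 12.31, 12.25 and 12.39. Psy1, the phytoene synthase that opens the carotenoid pathway in fruit, read 12.10, 12.13 and 12.13. LEMT1, a metallothionein-like protein, read 12.06, 12.22 and 12.02.

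**Figure D1:**
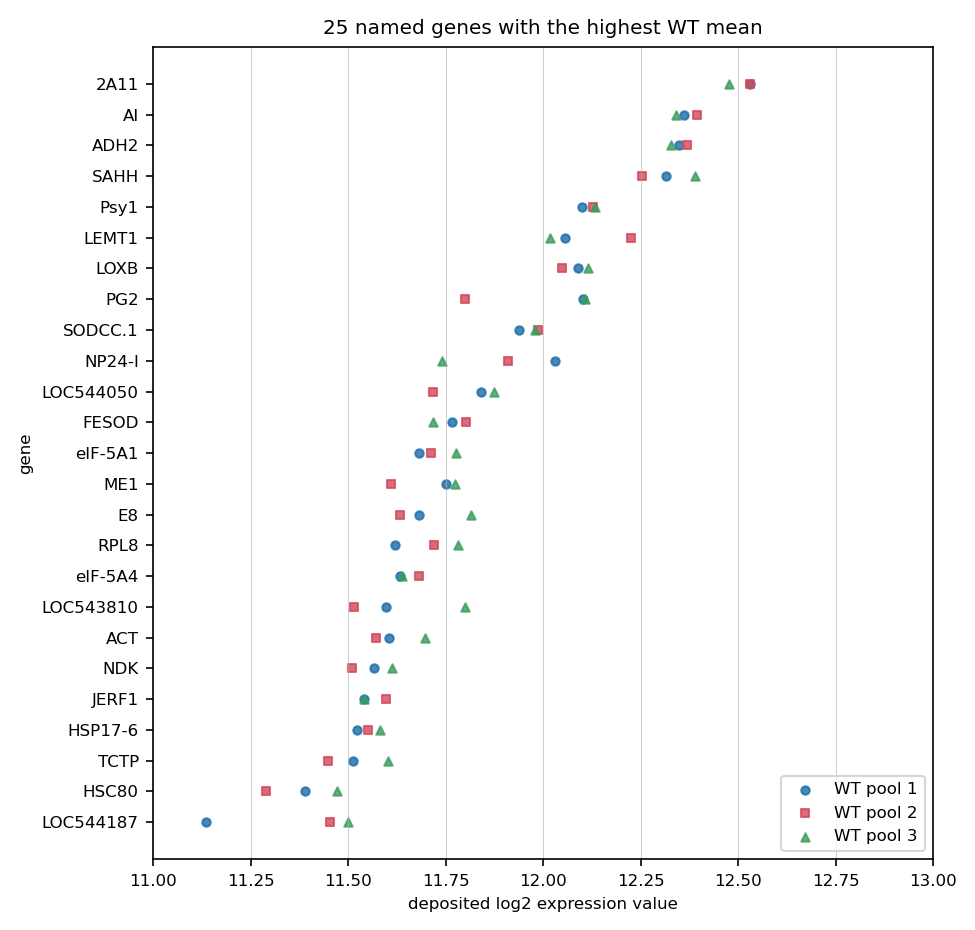
Log2 values of the 25 named genes with the highest WT mean (x axis) in WT pools 1 to 3, 1 row per gene, 1 point per pool. The points of a gene lie close together, with SDs from 0.02 to 0.20, and LOC544187 has its lowest value, 11.14, in pool 1.

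Next in signal came LOXB, a lipoxygenase of fruit, at 12.09, 12.05 and 12.11. PG2, the polygalacturonase that breaks down pectin in ripe fruit, read 12.10, 11.80 and 12.11. In it, pool 2 was the low one. SODCC.1, a cytosolic copper and zinc superoxide dismutase, read 11.94, 11.99 and 11.98, and NP24-I, an osmotin-type protein, read 12.03, 11.91 and 11.74. E8, a dioxygenase gene widely used as an ethylene-responsive ripening marker, read 11.68, 11.63 and 11.82. Pool 3 was the highest for E8 and the lowest for NP24-I. The rest of the 25 included the iron superoxide dismutase FESOD (11.76), the translation factors eIF-5A1 and eIF-5A4 (11.72 and 11.65), the malic enzyme ME1 (11.71), the ribosomal protein RPL8 (11.71), the ethylene and jasmonate response factor JERF1 (11.56), and the chaperones HSP17-6 (11.55) and HSC80 (11.38). The other probe set of FESOD stood at 8.92, in the middle band. Over the 25 genes, the SD between pools had a median of 0.07. The last of them, LOC544187, stood at 11.36 and the first gene outside, LOC543830, at 11.34.

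Related genes were set side by side in 53 groups of 313 genes, chosen with the values known. In 25 groups every member was above background on all 3 arrays, and in 11 groups a member in the high band stood beside a member at background.

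**Figure D2:**
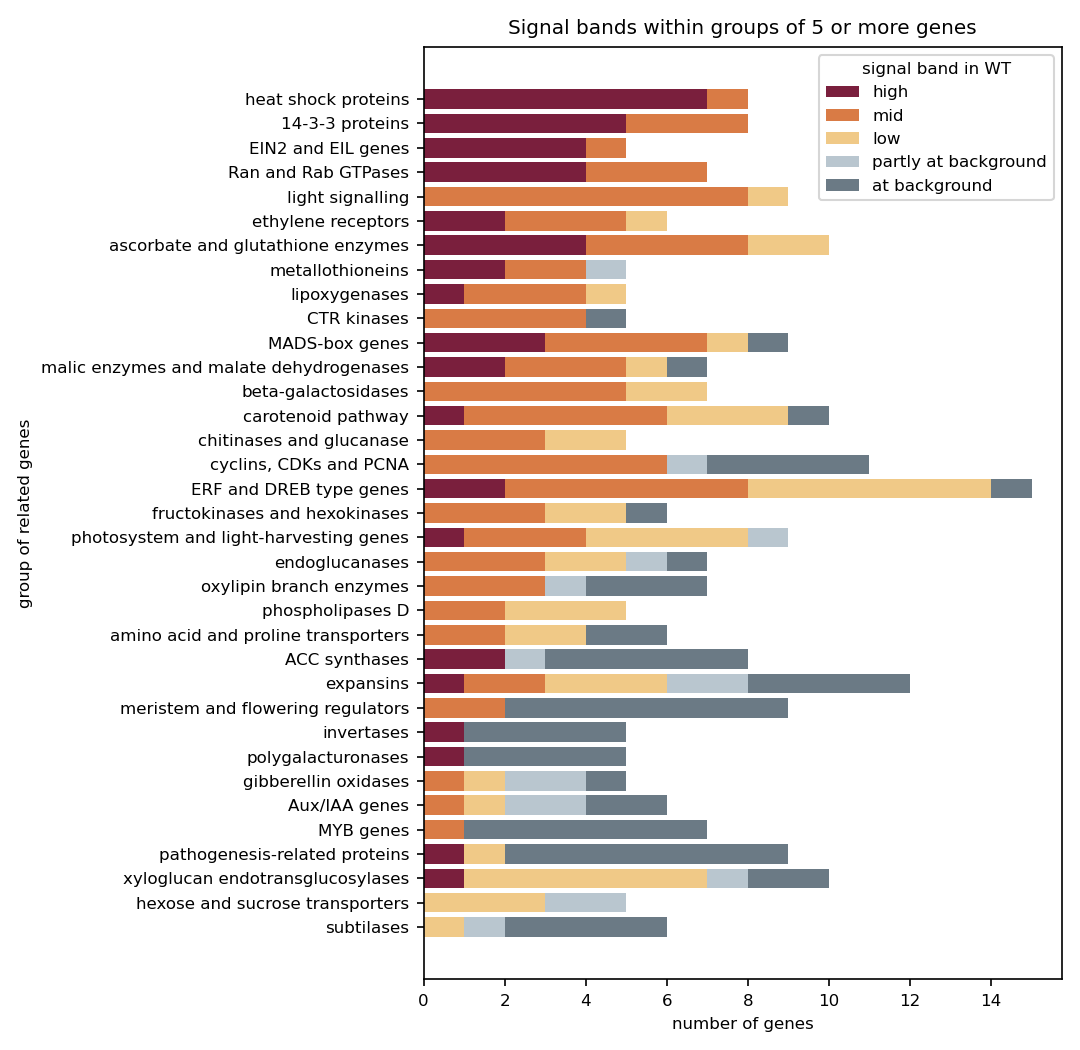
Number of genes in each signal band (x axis) for the groups of related genes with 5 or more members, 1 bar per group. Heat shock proteins and 14-3-3 proteins have no member under the middle band, whereas polygalacturonases and invertases have 1 high member and 4 at background.

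Ethylene synthesis showed a split among paralogues. Of 8 ACC synthase genes, ACS2 read 9.64, 8.58 and 9.61 and ACS4 read 9.95, 10.19 and 9.59, both in the high band. ACS6 was partly at background, and ACS1A, ACS3, ACS5, ACS7 and ACS8 were at background, with means from 0.93 to 1.30. ACS2 and ACS4 are the copies known for ethylene of the climacteric. Pool 2 was the lowest of the pools for ACS2 and the highest for ACS4. The 3 named ACC oxidases were in the middle band (ACO1, the copy known from ripening, had no named probe set), with ACO5 at 8.83, 8.06 and 8.79, ACO4 at 6.70, 5.93 and 7.45, and ACO6 at 5.35, 5.79 and 6.76. The lowest of the 3 probe sets of ACO6 stood at 3.17, in the low band. The supply of S-adenosylmethionine was in the high band throughout, with the synthetases SAM1 at 11.07 ± 0.03 and SAM3 at 9.56 ± 0.25 (SD, n = 3).

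All 6 ethylene receptors were above background. ETR4 read 11.07, 11.10 and 11.08, and the ETR3 gene, listed as LOC544279 and known as Never ripe, read 10.56, 10.61 and 10.43. These were the members in the high band. ETR1 (7.64), ETR2 (7.22) and ETR6 (6.55) were of middle signal, and ETR5 was in the low band at 5.02, 5.58 and 4.94. ETR1 also had 1 of the smallest SDs of all genes in the middle band, 0.03. The kinases CTR1, CTR3, CTR4 and TCTR2, which act next to the receptors, were of middle signal with means from 5.81 to 7.14, and TCTR1v was at background. The annotation lists TCTR1v also as a synonym of CTR1, so these may be probe sets of 1 gene. EIN2, a membrane protein of the pathway, stood at 7.41 ± 0.09. All 4 EIL genes were in the high band, from 9.26 for EIL4 to 9.64 for EIL2, with SDs of 0.05 to 0.19.

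Among 15 response factors of ERF and DREB type, JERF1 (11.56) and ERF2 (10.25) were high, 6 were of middle signal, 6 low, and EREB was at background at 0.88. The other probe set of ERF3, 1 of the 6 of middle signal, stood at 1.11, at background. MADS-box regulators divided further. RIN, required for ripening, read 9.93, 9.96 and 10.01, and TDR4, the tomato FRUITFULL gene, read 10.85, 10.83 and 10.92. LOC543885, listed with the synonym TDR5, stood at 9.36 ± 0.09. These 3 genes were in the high band and close between pools. TAGL1, an AGAMOUS-like regulator of fruit growth and ripening, stood at 8.08 ± 0.12, and AG1 read 9.07, 9.36 and 8.06, lowest in pool 3. AGL11 was at background at 0.89. 6 of 7 MYB genes were at background, and the seventh, LeMYBI, stood at 5.31 ± 0.08 at the lower edge of the middle band. Of 9 meristem and flowering regulators, 7 were at background, WUS, LS, FALSIFLORA and SP among them, and the homeobox genes KN4 (6.42 ± 0.07) and T12 (7.63 ± 0.14) were of middle signal.

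In the carotenoid pathway the fruit phytoene synthase Psy1 was high on its brightest probe set. Its paralogue PSY2 was low at 4.96, 5.14 and 5.14. The lowest of the 3 Psy1 probe sets stood at 1.77, so this contrast depends on the probe set taken. The desaturases PDS (8.03, 7.86 and 7.63) and ZDS (8.77, 8.45 and 8.44), which turn phytoene towards lycopene, were of middle signal. Pool 1 was the highest of the pools for both. The beta-cyclase LCY1 read 5.17, 5.84 and 5.43, and the epsilon-cyclase gene CRTL-E-1 was at background at 0.83, 1.01 and 0.82. The gene listed as NSY, with the synonym Cyc-B, was low at 3.91, 3.10 and 4.52. Cyclases are the enzymes that use lycopene up. The plastid precursor pathway was above background at all 4 named steps, with DXS high at 9.51 ± 0.10 and HDS, ISPE and DXR of middle signal (9.05, 7.78 and 7.77). Of the cleavage enzymes, CCD1B was of middle signal at 8.87 ± 0.15 and CCD1A low at 4.83 ± 0.11.

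**Figure D3:**
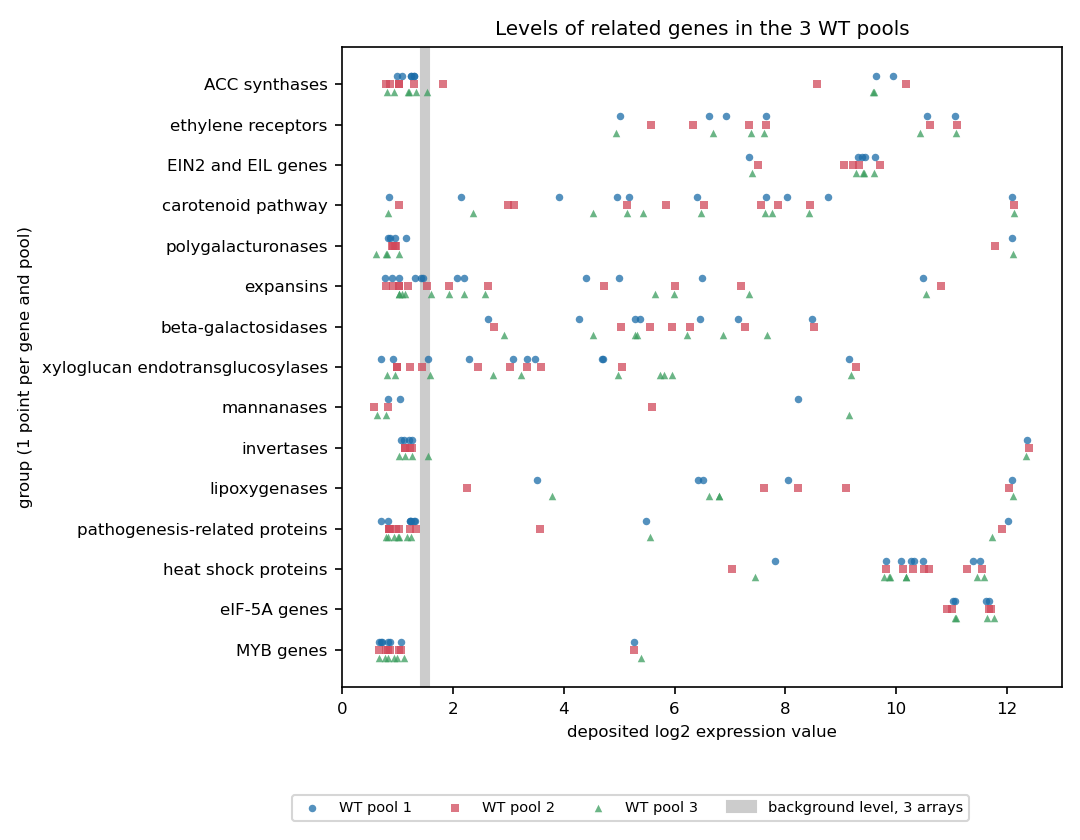
Log2 values (x axis) of every gene of 15 groups in WT pools 1 to 3, 1 point per gene and pool, with the range of the 3 background levels in grey. In polygalacturonases and invertases 1 gene lies near 12 and 4 lie below or at the grey band, while the EIN2 and EIL genes lie between 7.34 and 9.70.

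Wall enzymes showed the same kind of split in some families and not in others. PG2 was the 1 polygalacturonase above background, and PGcat, TAPG1, TAPG2 and TAPG4 were at background with means from 0.78 to 1.03. The TAPG genes are known from organ abscission. Of 12 expansins, which loosen walls, EXP1, the ripening expansin, was high at 10.48, 10.81 and 10.55. EXPA3 (7.01) and EXPA4 (5.67) were of middle signal, 3 were low, 2 partly at background, and EXP2, EXPA8, EXP12 and exp18 at background. The 7 beta-galactosidases, which trim galactose from pectin side chains, were by contrast all above background. TBG3 (8.48, 8.51 and 7.67), TBG4 (7.14, 7.27 and 6.88), TBG1, TBG2 and TBG5 were of middle signal, and TBG6 and TBG7 were low.

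The pectin methylesterases PE1 (9.85, 10.29 and 10.48) and PME2.1 (8.81, 8.92 and 9.59) were lowest in pool 1 and highest in pool 3, as was PMEU1 (4.06, 5.10 and 5.24). Of 7 endoglucanases, Cel2, Cel3 and CEL8 were of middle signal (7.07, 8.65 and 6.18), Cel1 and the gene named CELLULASE were low, cel5 was partly at background and cel7 at background. Of 10 xyloglucan endotransglucosylase genes, which cut and rejoin xyloglucan, XTH5 was the only high member, at 9.16, 9.27 and 9.19. Another 6 were low, XTH6 was partly at background, and XTH7 and XET2 were at background. Man4, the ripening mannanase, was of middle signal, and MAN1 and MAN2 were at background.

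Sugar genes split among paralogues as well. AI was the 1 invertase above background, and the cell wall invertases lin5, Wiv-1, LIN7 and LIN8 were at background, with means from 1.07 to 1.34. Among the enzymes that make or cleave sucrose, SPS, sucrose phosphate synthase, was high at 10.52 ± 0.17, sus3 high at 9.26 ± 0.11, and the sucrose synthase gene listed as LOC543961 low at 5.23 ± 0.31. The fructokinases FRK1, FRK2 and FRK3 were of middle signal (6.84, 8.60 and 7.86) and FRK4 was at background. The hexokinases hxk1 and Hxk2 were low, at 4.97 and 4.12. No hexose or sucrose transporter of the 5 reached the middle band, with SUT2 at 5.03, HT3 at 4.16 and SUT4 at 3.28, and HT1 and HT2 partly at background. In malate metabolism ME1 and the mitochondrial mMDH1 (10.45 ± 0.07) were high and cMDH was at background.

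Of the 5 lipoxygenase genes, LOXB alone was high. loxC, the lipoxygenase that makes short-chain volatiles, read 8.04, 8.23 and 6.81, and TomloxE read 6.52, 7.61 and 6.62. HPL, the lyase that acts on the products of such lipoxygenases, stood at 8.63 ± 0.28. On the jasmonate branch loxD was low, AOS was at background at 0.97, and AOC (5.89) and OPR3 (7.39) were of middle signal. Of 9 pathogenesis-related genes set side by side, NP24-I was high, PR-P2 low, and PR-5, LOC543878, PR1b1, P4, P69A, P69B and TSI-1 at background, with means from 0.77 to 1.27. In a wider list of 38 pathogenesis-related and wound genes, matched by symbol and synonym with some unrelated genes caught, 15 were at background, 3 partly so and 20 above it on all arrays.

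Most stress and redox genes were in the high or middle band. 7 of 8 heat shock genes were high, from 9.84 for Hsp90-1 to 11.55 for HSP17-6, and vis1, a small heat shock gene of ripe fruit, read 10.48, 10.51 and 10.18. ER-SHSP, of the endoplasmic reticulum, was of middle signal at 7.82, 7.03 and 7.45. All 10 enzymes of ascorbate and glutathione were above background, with GPXle-1 (11.25), GSH1 (10.67), GPXle-2 (9.95) and APX2 (9.86) high, and the low ones were APX and MDHAR. The other probe set of GPXle-2 stood at 5.38, in the middle band. Among metallothioneins LEMT1 and MT4 (10.98) were high, MTA and MT2 of middle signal, and MT3 partly at background. The MT4 value came from a probe set marked as able to pick up related sequences, and the lowest of its 4 probe sets stood at 4.71.

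Among genes above background, spread between pools fell with level. The median SD was 0.09 in the high band, 0.18 in the middle band and 0.28 in the low band. Over the 602 genes above background it was 0.16 in WT, 0.22 in AS5 and 0.27 in AS17, and 65 genes differed by over 1 log2 unit between their highest and lowest WT pool. The steadiest gene of the middle band was PP5, a protein phosphatase, at 8.96, 8.97 and 8.96.

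**Figure D4:**
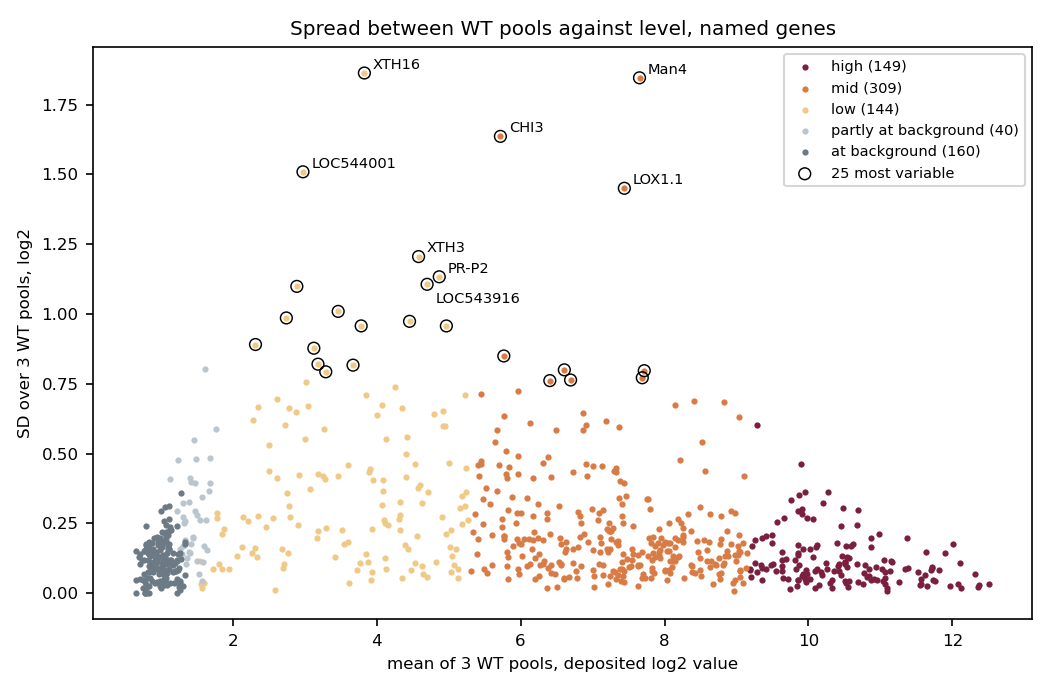
SD over the 3 WT pools (y axis, log2) against the WT mean (x axis, log2) for the 802 named genes, coloured by band, with the 25 most variable genes ringed. The ringed genes lie in the low and middle bands, from 0.76 to 1.86, and the highest SD in the high band is 0.60.

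The 25 genes with the highest SD were led by wall and defence genes. XTH16 read 3.08, 2.45 and 5.95 in pools 1, 2 and 3. Pool 3 was the high one, and the 2 other probe sets of XTH16 were also highest in pool 3, at 3.93 and 3.48 against 1.43 to 2.50. Man4 read 8.22, 5.59 and 9.15, low in pool 2, on a probe set marked as able to pick up related sequences. CHI3, a chitinase, read 6.61, 3.83 and 6.71. Pool 2 was the low one for both.

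LOX1.1, a lipoxygenase, read 6.42, 9.10 and 6.80, and LOC544001 read 1.72, 4.65 and 2.56. In both, pool 2 was the high one, and the 1.72 of LOC544001 was near the background of pool 1, 1.48. XTH3 (4.69, 3.33 and 5.73), LOC543916, also called XTH9 (4.71, 3.59 and 5.80), and tXET-B2 (2.29, 1.44 and 3.22) had the order of XTH16, lowest in pool 2 and highest in pool 3. The 1.44 of tXET-B2 lay just above the background of pool 2, 1.41. XTH1 had another order, at 3.33, 5.06 and 4.98. These 5 were among the 7 genes of the xyloglucan endotransglucosylase group that were above background. Over all named genes above background, the list held 25 of 602. The groups were chosen with the values known, so shares of a group are a description only. XTH5, the high member, had an SD of 0.06, where the median was 0.09 in the high band and 0.28 in the low band. With SD taken relative to its trend on level, XTH1 and tXET-B2 were not in the list.

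Of 5 genes for chitinases and a glucanase, which attack fungal walls, 4 were among the 25, and they did not share an order. CHI9 (5.52, 6.71 and 5.07) and GluB (3.32, 4.61 and 3.09) were highest in pool 2, CHI3 was lowest there, and CHI17 read 7.27, 5.82 and 6.13. PR-P2, a chitin-binding defence protein, read 5.49, 3.56 and 5.56. Of 5 lipoxygenase genes 3 were among the 25, LOX1.1, loxC and loxD (3.51, 2.25 and 3.79), while LOXB, of the high band, had an SD of 0.03. With SD taken relative to its trend on level, loxD and GluB were not in the list. Signalling genes were represented by MPK3, a MAP kinase of defence, at 3.58, 2.41 and 4.41. Another probe set of MPK3 kept that order, at 2.76, 1.85 and 3.61, and a further one was between 1.09 and 1.49. The brightest MPK3 probe set was marked as able to pick up related sequences. MPK3 too was not in the list with SD taken relative to its trend on level.

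**Figure D5:**
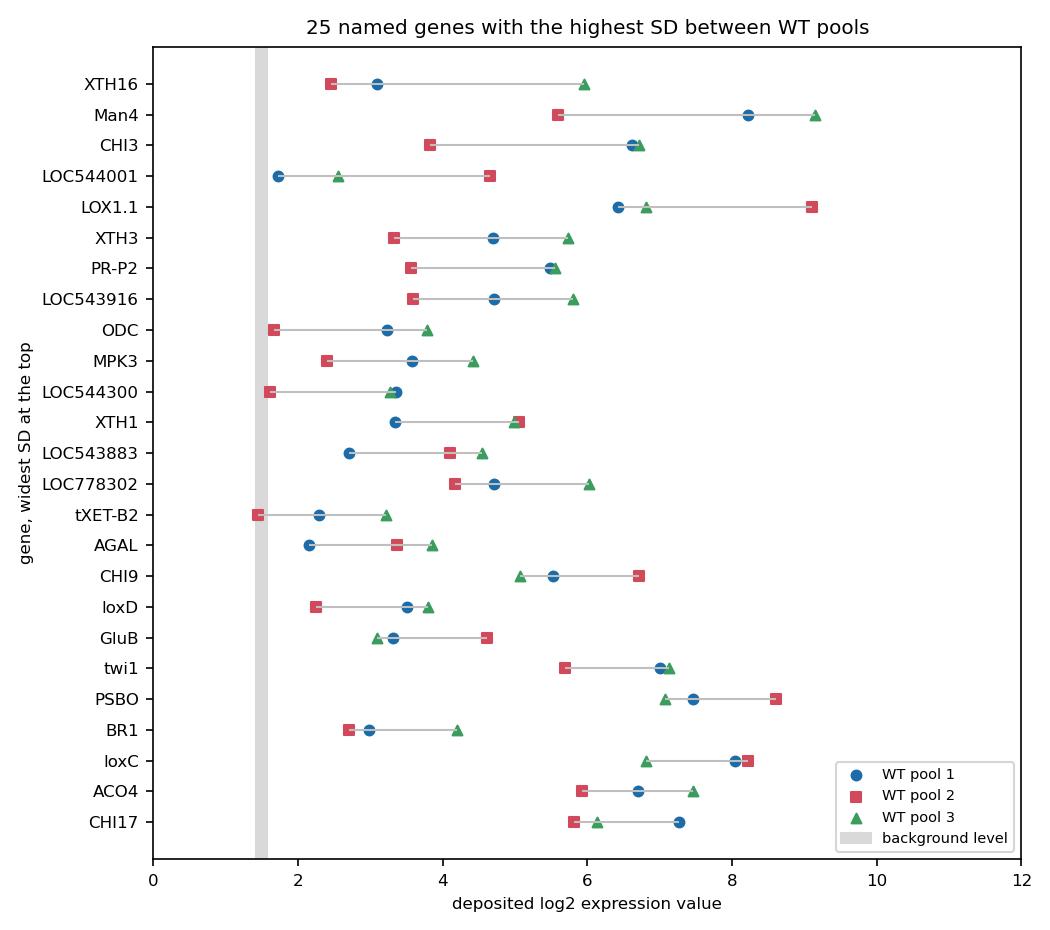
Log2 values (x axis) in WT pools 1 to 3 of the 25 genes with the highest SD between WT pools, sorted by SD, with a line over the range of each gene and the range of background levels in grey. Pool 2 is at an end of most lines, at the low end for XTH16, Man4 and CHI3 and at the high end for LOC544001, LOX1.1 and PSBO.

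ODC, ornithine decarboxylase of polyamine synthesis, read 3.23, 1.66 and 3.78, and twi1, a wound-induced glucosyltransferase gene, read 7.01, 5.69 and 7.13. The 1.66 of ODC was near the background of pool 2, 1.41. PSBO, a subunit of the oxygen-evolving complex of photosystem II, read 7.46, 8.61 and 7.08. PSBO was thus highest in pool 2, where the summed green tissue markers, PSBO included, were also highest. PsbQ, another subunit, stood just outside the list with 3.56, 5.03 and 4.15. The last gene inside, CHI17, had an SD of 0.76 and the first outside, AgpL1, of 0.75.

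Pool 2 was the pool farthest from the mean in 16 of the 25 genes (64.0%), below it in 11 and above it in 5, against 44.7% of all 602 genes above background. Pool 2 was also the WT pool with the highest 3′ minus 5′ control signals given above, and their part in these differences was not tested. With SD taken over pools 1 and 3 alone, 12 of the 25 genes stayed in the list, XTH16, XTH1, XTH3 and Man4 among them. Their spread within the silenced lines, which the choice did not use, had a median SD of 0.75 in AS5 and 0.73 in AS17, beside 0.96 in WT. Set against their own band, the 16 genes of the low band had a median SD of 0.60 in AS5 and 0.70 in AS17, where all low genes had 0.40 and 0.39, and 11 and 14 of the 16 were above those. Of the 9 in the middle band, 8 and 9 were above the band's medians of 0.21 and 0.28.

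The bands of WT were set against the silenced lines. In the same band in WT, AS5 and AS17 were 662 of the 802 genes. Of the 149 high genes 137 were high in both lines, and of the 160 genes at background 135 were at background on all 6 silenced arrays and 0 above it on all 6. Background itself was higher on the silenced arrays, from 1.57 to 1.98. In a limma fit of the mean of both lines minus WT, 128 of 10038 probe sets passed (Benjamini-Hochberg adjusted p under 0.05), which is 1.28%. Among the probe sets that represent genes, 14 of 802 passed, with 1 of 149 in the high band, 7 of 309 in the middle band, 5 of 144 in the low band, 0 of 40 partly at background and 1 of 160 at background.

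Of the 25 brightest genes, 1 passed, NP24-I, which fell by 1.64 (SE 0.14, limma adjusted p = 0.000817). Of the 25 most variable, 0 passed by limma and 7 had an unadjusted p under 0.05, as had 1554 of all 10038 probe sets. The spread of these 25 genes between WT pools, by which they were chosen, also enters the error of that fit. Neither the 0 nor the 7 therefore says anything about them. The count over all probe sets fell when any 1 array was left out, which also takes a replicate from its group. It was 27, 37 and 51 without WT pool 1, 2 or 3, and 62, 49 and 95 without AS5 pool 1, 2 or 3. Without AS17 pool 1, 2 or 3 it was 110, 110 and 70. Asr1 had no named probe set, so the silencing of its transcript could not be checked here.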

How the data were processed

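RNA of 9 mesocarp pools was measured on single-colour Affymetrix tomato arrays. The log2 values deposited by the authors were made with RMA, per the submitters' processing notes, which corrects background, normalises arrays and summarises probes. Its version and settings are not given in the sources used here, and the values were used without rescaling. RMA makes arrays alike in distribution, so a change shared by all transcripts would not be seen. The number of arrays limits the precision.

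The table held 10209 probe sets, of which 171 controls were left out. The old platform annotation gave 909 probe sets 1 symbol, 0 several and 9129 none. Of the named ones, 885 matched RefSeq genes of assembly SLM_r2.1, used for synonyms only. Of the 802 genes, 176 have only a LOC number. A gene was represented by its probe set with the highest WT mean. For 24 genes that probe set was marked as able to pick up related sequences, with TDR4, CTR1, MT4 and Man4 among them. A gene was high, middle or low by its mean percentile among all probe sets of an array (limits 90 and 50) if above background on all 3 arrays. Errors are SDs over pools. The labels give 3 plants per line without tying a pool to a plant, so p-values measure the spread between pools, part of which may be technical.

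The text names the 25 genes with the highest WT mean, the 25 above background with the highest SD, members of groups of related genes, and markers. The members and lists were chosen with earlier results of these data known. The comparison with silenced lines used limma 3.58.1 in R 4.3.3 with 1 mean per group over 9 arrays, and was tested on simulated data. Other backgrounds, representative probe sets, scalings, measures of spread, fits and left-out arrays were tried. Lists of variable genes without each WT pool, and gene levels under other scalings, were added after seeing the data. Python 3.11.15 and matplotlib 3.10.9 were used for the rest.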

Additional observations from a re-analysis of the deposited data

How the results depend on the processing

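With background at the highest control probe set the low band held 79 genes in place of 144, and 238 genes were at background in place of 160. Leaving out 1 WT pool gave 147 to 150 high, 308 to 309 middle, 148 to 153 low, 23 to 30 partly at background and 164 to 170 genes at background, the 23 without pool 2. With that background, 697 of the 802 genes stayed in their band. The 90th percentile of the controls as background, other probe sets and quantile normalisation kept each band count within 1.5 times and 750 to 801 genes in their band. Of the 25 most variable genes, 15 were shared when SD was taken relative to its trend on level, and 12 to 21 when 1 WT pool was left out. Of 250 recomputed levels of genes described, 245 moved by under 1 SD. Centring and leaving out 1 of 3 pools cannot move a mean by 1 SD, so most of that count was fixed beforehand. The 5 levels that moved by 1 SD or more, those of 2A11, AI and ADH2 among them, did so under quantile normalisation. For the silenced lines against WT, the 128 calls, 15 of them named when every probe set counts, became 78 and 9 with pool number as a replicate block. They became 27 to 110 and 3 to 14 when 1 array was left out. Centring, quantile normalisation, a filter on dim probe sets and trended robust variances gave 124 to 139 calls. Deviations of same-numbered pools from their group means correlated from -0.38 to 0.55 across probe sets, and those of differently numbered pools from -0.68 to 0.56. Deviations within a group depend on each other, so these ranges cannot decide whether pool numbers pair the arrays.

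With 3 pools, an SD is itself imprecise, and the list of variable genes is a description of these pools. Signal under background bounds a gene's level only from above. Symbols cover a small share of the array and favour well-studied genes, and the annotation is old. Probe sets of 1 gene often disagreed in level, so a band belongs to a probe set. Sequences and genome positions were not analysed here.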

Other observations

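Cell cycle genes of red ripe mesocarp did not share a band, nor did the A-type cyclins among them. Of 11 genes, CycA3 (7.35), CYCD3 (5.46), CDKA1 (7.33), cdc2A-2 (7.42), CDKC (6.13) and the replication clamp PCNA (7.42 ± 0.25, SD, n = 3) were of middle signal. The mitotic genes CycB2 (1.08) and CDKB2 (0.96) were at background, as were CycA1 and CycA2, and CDKB1 was partly so. Of 9 photosystem, light-harvesting and plastocyanin genes, 8 were above background on all 3 arrays, as were 602 of the 802 named genes. PSBR was high at 10.44, 10.52 and 10.31, PSBP stood at 8.04 ± 0.15, and the plastocyanin gene PETE at 7.80, 7.22 and 6.95. CAB4 was low at 5.26 ± 0.26. Of 9 light signalling genes, whose SDs between pools had a median of 0.14, 8 were of middle signal, from 5.34 for DET1 to 8.27 for DDB1. The other probe set of CRY1A, 1 of the 8, stood at 1.42, partly at background. The photoreceptor gene Cry1b was low at 1.76, 3.07 and 2.20, highest in pool 2.

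All 4 eIF-5A translation factor genes were high, from 11.02 to 11.72, with SDs of 0.03 to 0.09. The 3 RAN genes were high, from 10.25 to 10.91, as was Rab1A (9.50), and RAB1B, Rab1C and Rab11a were of middle signal. Of 8 genes for 14-3-3 proteins, which bind phosphorylated partners, 5 were high and 3 of middle signal. Among hormone genes outside ethylene, of 6 Aux/IAA repressors IAA3 was of middle signal (7.81, 7.99 and 8.16), IAA27 low, IAA16 and IAA17 partly at background, and IAA2 and IAA7 at background. The bands of IAA3 and IAA27 depended on the probe set, as their other probe sets stood at 2.64 (low) and 1.00 (at background). Of 5 gibberellin oxidases 20ox-3 was of middle signal at 5.75 ± 0.27 and GA20OX1 was at background. NCED1, which makes the precursor of abscisic acid, read 6.75, 6.62 and 7.40, highest in pool 3.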
